A study of Homo sapiens with 9 samples.

Results

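Gene expression after 72 h of CDDO-Me was compared with expression after 24 h of the same drug in AC16 cells. The members were all libraries that the labels place in these treated groups, which makes 6 of the 9 libraries of the series, with 3 at each time. AC16 is a proliferating human line that was made by fusing cells of the adult heart ventricle with SV40-transformed fibroblasts. Both groups received CDDO-Me at 100 nM, one for 24 h and the other for 72 h. The remaining group of 3 libraries had vehicle, 0.1% DMSO, for 72 h. A vehicle group of 24 h was not analysed here, so a difference between the drug groups holds both exposure and time in culture, and these cannot be told apart. A difference of the 24 h group from vehicle likewise holds both treatment and time in culture. Nothing in the labels tells whether replicates came from separate cultures, and the p-values then reflect only how these libraries varied, which may be technical. The design text writes CDDO for the 72 h group where the treatment labels give CDDO-Me.

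CDDO-Me, also called bardoxolone methyl, belongs to the synthetic triterpenoids and reacts with cysteines of KEAP1. KEAP1 is the adaptor that brings the transcription factor NRF2 to a ubiquitin ligase, and NRF2 that escapes it enters the nucleus and binds antioxidant response elements with small MAF proteins. Its known targets make glutathione and NADPH, reduce thioredoxin, break down heme, store iron and detoxify quinones and carbonyls. In heart cells these products are known for limiting damage by oxidants.

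Polyadenylated RNA was counted per gene, with total counts of 16898977 to 27910031 per library. Levels are CPM, the usual library-scaled read counts, and 3 counts equal 0.107 to 0.178 CPM. Of 58299 genes in the table, 14965 had enough counts to be tested. Differences are log2 fold changes of 72 h over 24 h with a standard error (±), so a value of 1 is a doubling, and adjusted p is from edgeR's quasi-likelihood test over all tested genes. A gene was called, and is said to have risen or fallen, at an adjusted p under 0.05. The values after ± beside a CPM are SD over 3 libraries. The cardiac label was weak in the RNA, since of 16 cardiac muscle markers 7 had no count in any library (MYH6, MYH7, MYL2, MYL3, NKX2-5, RYR2 and PLN) and only GATA4 had enough counts to be tested. All 11 fibroblast markers were tested, and their summed level was 15744 to 16143 CPM at 72 h and 12168 to 17010.0 CPM at 24 h. The summed cardiac markers were at 20.9 to 22.5 CPM at 72 h and 18.6 to 24.6 CPM at 24 h. Most of the cardiac sum was GATA4 alone, at 20.5, 21.3 and 22.0 CPM at 72 h and 21.7, 17.9 and 24.2 CPM at 24 h.

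The libraries did not lie evenly. Between pairs of 72 h libraries the biological coefficient of variation was 2.73 to 3.31%. Between 24 h replicates 1 and 2 it was 6.38%, but 24 h replicate 3 differed from them by 20.9 and 19.9%. That library differed less from the 72 h libraries, by 12.8 to 13.5%, than from its own group. It was also the deepest library, at 27910031 counts. Levels below are given for every library in the order of replicates 1, 2 and 3. For uncalled genes in which 24 h replicate 3 stands apart from replicates 1 and 2, the value without it is often given as well. It was left out there because it stands apart, so its removal lowers the spread in these genes and with it the adjusted p. Such p-values rest on 2 libraries of 24 h and are not separate evidence of a change. DMSO replicate 1 differed from the other vehicle libraries by 12.1 and 13.9%, against 7.79% between those. The vehicle libraries enter the estimate of spread, the choice of genes tested, the scaling of libraries and the vehicle values.

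At 72 h, 67 genes (0.448% of those tested) had risen and 85 (0.568%) had fallen against 24 h, which makes 152 called genes (1.02%). Only 9 of the genes that rose and 14 of those that fell changed at least 2-fold, and the median log2 fold changes of the called genes were 0.68 and -0.62. The median over all tested genes was -0.01. The genes that rose included the peptide hormone EDN1, MAP kinase phosphatases, early response transcription factors and a part of the NRF2 targets. Those that fell included the matrix protein POSTN, the transglutaminase TGM2, the metallothioneins MT2A and MT1E, the keratins KRT18 and KRT19 and the sterol genes INSIG1 and HMGCS1. In all 152 called genes the 3 libraries of 72 h lay outside the range of the 3 libraries of 24 h, as did 21.0% of the tested genes (10.8% with 72 h higher and 10.2% with 72 h lower). Without 24 h replicate 3, 795 of 15311 genes (5.19%) had risen and 1048 (6.84%) had fallen, and the 152 genes were among them in the same direction. As the groups of these 152 genes do not overlap, leaving out a 24 h library could hardly reverse them, so this is not a separate test. All counts of list members given below without replicate 3 are to be read beside these shares of 5.19% and 6.84%. Against vehicle in the same full fit, the called share was 2.15% at 24 h (0.969% higher, 1.18% lower) and 6.02% at 72 h (2.89% higher, 3.13% lower). The vehicle was of 72 h, and the 24 h group holds the library that stands apart. The shares therefore do not measure how the drug response changed with time. Leaving out any 1 library of 72 h lowered the counts to between 20 and 25 risen and between 11 and 14 fallen genes. The counts were 43 and 35 without 24 h replicate 1, 30 and 26 without 24 h replicate 2, 104 and 138 without DMSO replicate 1, and 47 and 51 without DMSO replicate 2. In bulk RNA, fewer cells of a type and less RNA per cell cannot be told apart.

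**Figure D1:**
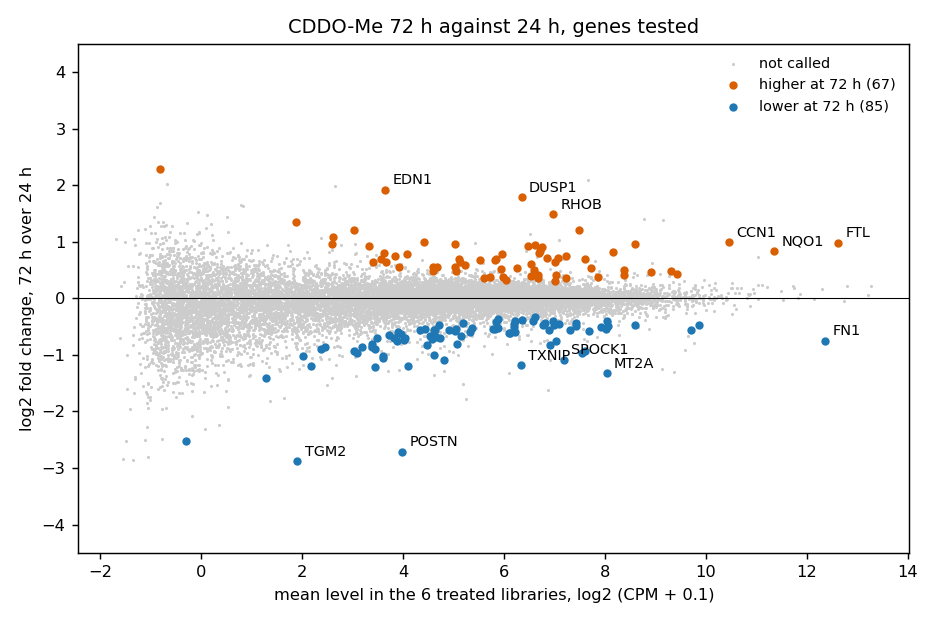
Each point is a tested gene, with its mean level in the 6 treated libraries (log2 of CPM + 0.1) on the horizontal axis and its log2 fold change of 72 h over 24 h on the vertical axis. Orange points are the 67 genes that rose and blue points the 85 that fell. POSTN and TGM2 lie lowest among the named genes, and EDN1 and DUSP1 highest.

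Immediate early genes, which code for short-lived transcription factors and signal brakes that cells switch on within minutes of a stimulus, were the list with the most risen members. Of 21 tested members 7 rose and none fell, with a median log2 fold change of 0.72. All 72 h libraries lay above all 24 h libraries in 14 of the 21, beside 10.8% of all tested genes. DUSP1 (ENSG00000120129, chr5:172768090-172771195), a phosphatase that inactivates MAP kinases in the nucleus, was at 32.3, 30.3 and 46.8 CPM at 24 h and at 124, 129.8 and 125 CPM at 72 h, a 3.45-fold rise (log2 fold change 1.79 ± 0.16, adjusted p = 0.000302). The 3 libraries of 72 h sat within a few CPM of each other, and even the highest 24 h library was far below them. In vehicle cells DUSP1 was at 108, 142 and 145 CPM, so the 72 h level lay in the vehicle range and the 24 h level below it. DUSP5, which acts on ERK, rose from 66.3, 68.2 and 65.7 CPM to 132, 133 and 119.6 CPM (log2 fold change 0.94 ± 0.13, adjusted p = 0.00416). Its vehicle libraries were at 46.9, 70.8 and 73.4 CPM, so that DUSP5 at 72 h stood above the vehicle cells as well. DUSP8, a related phosphatase outside the list that acts on JNK and p38, was at 3.96, 4.56 and 5.96 CPM and then at 11.1, 12 and 10.7 CPM (log2 fold change 1.21 ± 0.20, adjusted p = 0.00979).

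Among the transcription factors of this list, KLF6 rose from 95.2, 99.4 and 129 CPM to 246, 247 and 253 CPM (log2 fold change 1.20 ± 0.15, adjusted p = 0.00319). JUN, a subunit of AP-1, rose from 229, 205 and 188 CPM to 363, 361 and 374 CPM (log2 fold change 0.82 ± 0.11, adjusted p = 0.00319), and ATF3, a stress-induced partner of JUN, from 12.3, 13 and 16.8 CPM to 26.9, 29.4 and 28.2 CPM (log2 fold change 1.00 ± 0.16, adjusted p = 0.00659). For each of these genes the lowest 72 h library was above the highest 24 h library. KLF2, a zinc finger factor known from endothelium, was at 17.9, 19.3 and 29.1 CPM and then at 41.5, 44.5 and 44.4 CPM (log2 fold change 0.97 ± 0.16, adjusted p = 0.0101), with 24 h replicate 3 between the groups. IER2 had the smallest rise of the list, 1.47-fold (adjusted p = 0.0437). FOS and EGR1 had larger fold changes than every called member of the list but were not called. EGR1 was at 90.6, 81.2 and 61.6 CPM at 24 h and 326, 334 and 329.6 CPM at 72 h (log2 fold change 2.09 ± 0.49, adjusted p = 0.149), groups that do not overlap. Its vehicle libraries were at 94.9, 358 and 342 CPM, with replicate 1 low. Without DMSO replicate 1, EGR1 was called (adjusted p = 2.34e-06), as was FOS (0.000971), which was at 3.61, 2.03 and 1.9 CPM at 24 h and 8.82, 8.65 and 12 CPM at 72 h, and 10 members of the list had risen. DUSP8 and KLF2 lost their calls without 24 h replicate 2 or any 1 library of 72 h (adjusted p up to 0.0672 and 0.0725). IER2 lost it without DMSO replicate 3, 24 h replicate 1 or 2, or any 1 library of 72 h (up to 0.21).

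EDN1 (ENSG00000078401, chr6:12290363-12297194), which codes for the precursor of the vasoconstrictor endothelin-1, had the largest rise among called protein-coding genes of average log2 CPM of at least 3. It was at 4.6, 5.67 and 5.23 CPM at 24 h and 19.4, 18.8 and 20.8 CPM at 72 h, a 3.79-fold rise (log2 fold change 1.92 ± 0.24, adjusted p = 0.00319). Vehicle cells had 23.7, 43.6 and 50.3 CPM, and the differences from vehicle were -2.92, adjusted p = 7.96e-05 at 24 h and -1.0, adjusted p = 0.0185 at 72 h. EDN1 thus stood below the vehicle libraries at both times, further below at 24 h. These comparisons share libraries and are given side by side. RHOB (ENSG00000143878, chr2:20447074-20449445), a small GTPase of endosomes and the cytoskeleton, rose from 61.6, 55.1 and 80.3 CPM to 185, 175 and 196 CPM (log2 fold change 1.49 ± 0.11, adjusted p = 1.09e-05). RHOB had 83.3, 80.2 and 84.4 CPM in vehicle cells, and its difference from vehicle was -0.33, adjusted p = 0.187 at 24 h and 1.16, adjusted p = 2.55e-05 at 72 h. CCN1, a matricellular protein and textbook YAP target, rose from 968, 892 and 956 CPM to 1879, 1854 and 1866 CPM (log2 fold change 0.99 ± 0.08, adjusted p = 1.83e-05), against 1641, 1849 and 1919.9 CPM in vehicle cells. CITED2, a transcriptional coregulator that competes with HIF factors for their coactivator, rose from 271, 241 and 275 CPM to 516, 496 and 529 CPM (log2 fold change 0.97 ± 0.12, adjusted p = 0.00153).

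In the list of 19 YAP and TGF-beta targets, CCN1 was the risen member and TGFBI the fallen one, with a median log2 fold change of 0.02. CCN2, a close relative of CCN1, was at 171, 169.5 and 374 CPM at 24 h and 627, 650.1 and 627 CPM at 72 h and was not called (log2 fold change 1.41 ± 0.34, adjusted p = 0.152). Replicate 3 had more than 2 times the CCN2 level of the other 24 h libraries, and without it the value was 1.90, adjusted p = 0.00211. SRF, the factor that drives many early response and cytoskeletal genes, rose 1.29-fold (adjusted p = 0.0386) and was chosen here after its values were seen. Its call ended without DMSO replicate 2, 24 h replicate 1 or 2, or any 1 library of 72 h (adjusted p up to 0.203).

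**Figure D2:**
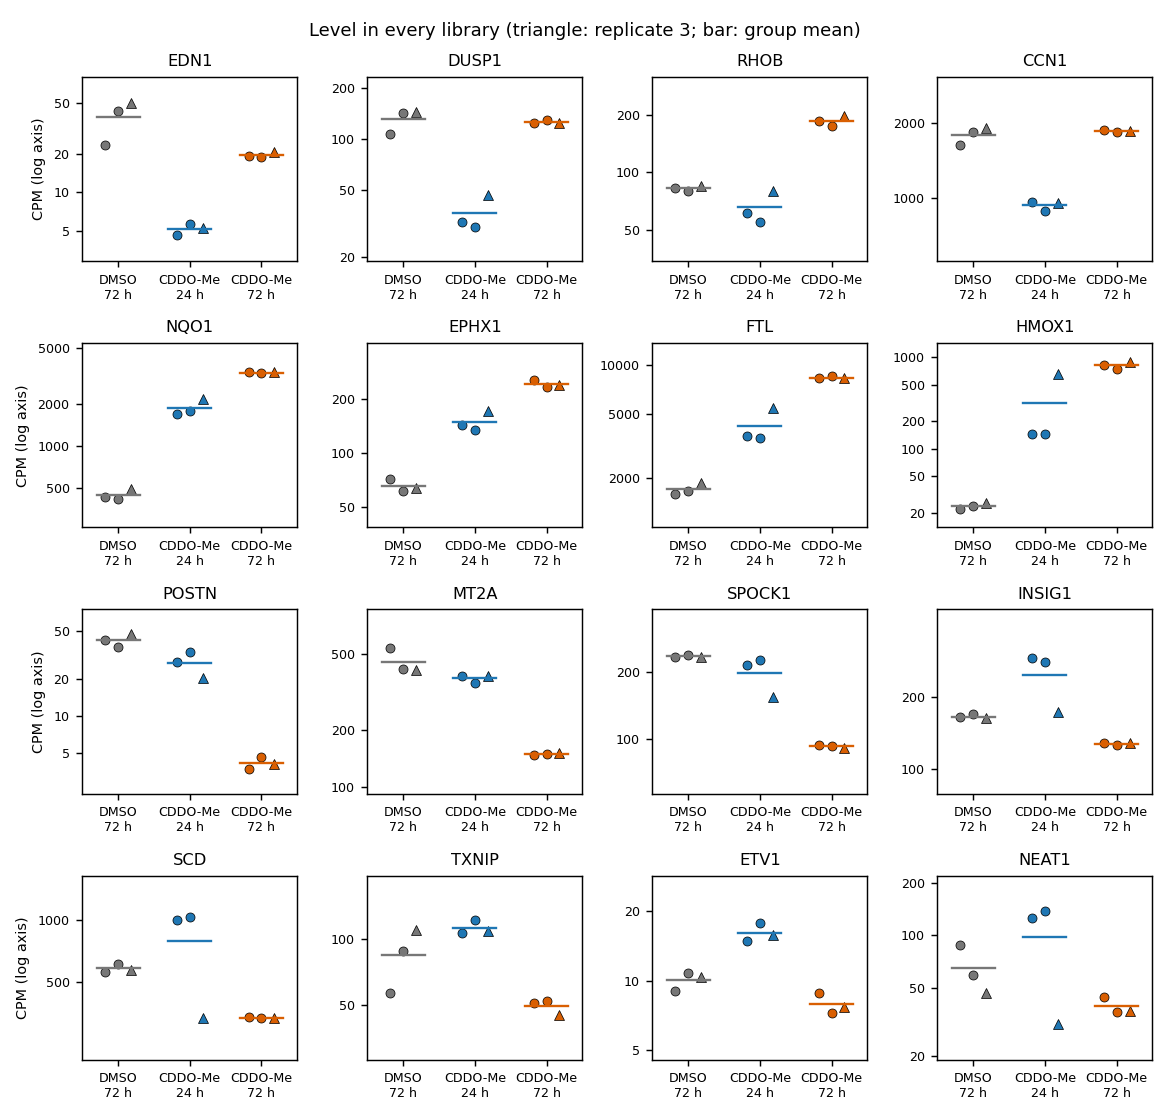
Level of 16 named genes in every library, in CPM on log axes, for DMSO 72 h (grey), CDDO-Me 24 h (blue) and CDDO-Me 72 h (orange). Points are libraries, triangles are replicate 3 and bars are group means. In EDN1, DUSP1, CCN1 and MT2A all 24 h points lie clear of all 72 h points, while in HMOX1, SCD and NEAT1 the 24 h triangle lies far from the 24 h circles.

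NRF2 targets differed in whether they were called and in where 24 h replicate 3 lay. In the list of quinone, epoxide and carbonyl detoxification, 3 of 15 tested members rose and none fell, with a median log2 fold change of 0.51. The groups did not overlap, with 72 h higher, in 11 of 15, beside 10.8% of all tested genes. NQO1 (ENSG00000181019, chr16:69706996-69726951), which reduces quinones by 2 electrons at a time, was at 1686, 1782 and 2169 CPM at 24 h and 3386, 3306 and 3353 CPM at 72 h, a 1.78-fold rise (log2 fold change 0.83 ± 0.10, adjusted p = 0.000992). Vehicle cells had 433, 419.5 and 495 CPM, so NQO1 had risen against vehicle at 24 h (2.06, adjusted p = 9.52e-08) and stood higher again at 72 h (2.90, adjusted p = 1.26e-09). EPHX1, the microsomal epoxide hydrolase, rose from 143, 134 and 172 CPM to 254, 232 and 239 CPM (log2 fold change 0.69 ± 0.09, adjusted p = 0.00251), against 71.6, 61.7 and 63.9 CPM in vehicle cells. In NQO1 and EPHX1 replicate 3 was the highest 24 h library and still lay below every 72 h library. AKR1B1, an aldose reductase, rose from 269, 251 and 302 CPM to 396, 354 and 419.7 CPM (log2 fold change 0.51 ± 0.09, adjusted p = 0.015). Its call ended without 24 h replicate 1 or 2 or without 72 h replicate 1 or 3 (adjusted p up to 0.139).

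AKR1C1, which reduces steroids and carbonyls, was at 38.4, 37.4 and 94.4 CPM at 24 h and 129.8, 116 and 132 CPM at 72 h and did not pass (log2 fold change 1.14 ± 0.35, adjusted p = 0.235). The groups did not overlap, but replicate 3 had more than 2 times the level of the other 24 h libraries, and without it the value was 1.74, adjusted p = 6.51e-10. OSGIN1, an NRF2 target that slows growth, was at 19.9, 21.5 and 86.1 CPM at 24 h and 48.9, 50.3 and 50.1 CPM at 72 h, so that replicate 3 lay above every 72 h library (log2 fold change 0.21 ± 0.60, adjusted p = 0.92). Without replicate 3 the value of OSGIN1 was 1.27, adjusted p = 0.0041, and the whole detoxification list had 10 of 15 members risen and a median of 0.74.

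In the heme and iron list, 1 of 12 tested members rose, with a median of 0.32. FTL (ENSG00000087086, chr19:48965301-48966878), the ferritin light chain that stores iron, rose from 3668, 3558 and 5420.4 CPM to 8289, 8479 and 8276 CPM (log2 fold change 0.99 ± 0.14, adjusted p = 0.00319), against 1600.1, 1679.8 and 1887 CPM in vehicle cells. Reads of FTL can be split with its processed copies, and the copy FTLP3, which was also called, was at 4.83, 2.68 and 4.57 CPM at 24 h and 7.95, 7.85 and 7.9 CPM at 72 h. The call of FTLP3 ended without any single library other than DMSO replicate 1 and 24 h replicate 3 (adjusted p up to 0.204). HMOX1 (ENSG00000100292, chr22:35380361-35394214), heme oxygenase 1, was at 146, 146 and 645 CPM at 24 h and 822, 747 and 880.1 CPM at 72 h, against 22.1, 23.6 and 25.8 CPM in vehicle cells. It was not called in the full fit (log2 fold change 1.38 ± 0.60, adjusted p = 0.399), and without replicate 3 it had the largest rise among called protein-coding genes of average log2 CPM of at least 3 whose groups did not overlap (log2 fold change 2.49, adjusted p = 1.98e-12). FTH1, the ferritin heavy chain, was at 1265, 1209.8 and 2273 CPM and then at 2572, 2691 and 2601 CPM (log2 fold change 0.73 ± 0.21, adjusted p = 0.169). Replicate 3 lay close below the 72 h libraries for FTH1, and without it the value was 1.09, adjusted p = 1.78e-09. Without replicate 3, 7 of the 12 heme and iron genes had risen and 1 had fallen.

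In the glutathione list, GSTM3, a glutathione transferase, was the only 1 of 13 tested members that rose, and the median was 0.19. It went from 36.3, 45 and 50 CPM to 70, 72.5 and 71.5 CPM (log2 fold change 0.70 ± 0.11, adjusted p = 0.0069), and lost its call without 72 h replicate 2 or 3 (adjusted p up to 0.0548). GCLM, the regulatory subunit of the enzyme that limits glutathione synthesis, was at 226, 255 and 542 CPM at 24 h and 451, 453 and 465 CPM at 72 h (log2 fold change 0.42 ± 0.31, adjusted p = 0.621). SLC7A11, the cystine carrier that feeds this synthesis, was at 127, 158 and 391 CPM and then at 296, 312 and 292 CPM (log2 fold change 0.41 ± 0.39, adjusted p = 0.719). For both of these genes replicate 3 was above all 72 h libraries while replicates 1 and 2 were below all of them. Without replicate 3 the values were 0.93, adjusted p = 6.24e-08 for GCLM and 1.07, adjusted p = 3.1e-07 for SLC7A11, and 7 of 13 members of the list had risen.

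Of 7 genes of NADPH supply, none was called by edgeR, DESeq2 or limma-voom and 4 were higher at an unadjusted p under 0.05, with a median of 0.19. Of all tested genes 5.75% were higher and 7.40% lower at that unadjusted limit. TKT, a transketolase of the pentose phosphate pathway, was at 841, 784 and 784 CPM at 24 h and 924, 909.9 and 912 CPM at 72 h (log2 fold change 0.19 ± 0.07, adjusted p = 0.257), groups that do not overlap. PGD, a dehydrogenase of that pathway, was at 425, 428 and 737 CPM and then at 690.0, 712 and 702 CPM, with replicate 3 above the 72 h range (log2 fold change 0.40 ± 0.18, adjusted p = 0.375). Without replicate 3 the value of PGD was 0.72, adjusted p = 3.43e-07, and 3 of 7 members had risen. None of 11 thioredoxin and peroxiredoxin genes was called by edgeR or limma-voom, 1 had risen by DESeq2, and 3 were higher at an unadjusted p under 0.05. TXNRD1, thioredoxin reductase, was at 1239.5, 1349.5 and 3162 CPM at 24 h and 2276, 2342 and 2198 CPM at 72 h (log2 fold change 0.24 ± 0.35, adjusted p = 0.82), and TXN at 268, 306 and 399 CPM and 436, 447 and 443 CPM (log2 fold change 0.45 ± 0.12, adjusted p = 0.105). Without replicate 3 the values were 0.81, adjusted p = 2.2e-05 and 0.62, adjusted p = 3.44e-05, and 4 of 11 members had risen.

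None of 6 drug efflux pumps and none of 14 regulators and partners of NRF2 was called by edgeR, DESeq2 or limma-voom. At an unadjusted p under 0.05, 1 pump was lower and 2 regulators were higher, beside 7.40% lower and 5.75% higher over all tested genes. Without replicate 3, 4 of the 14 regulators had risen and 1 of the 6 pumps, ABCC1, had fallen. In that fit 5.19% of all tested genes had risen and 6.84% had fallen. ABCC3 was at 16.1, 13.2 and 13.6 CPM at 24 h and 17.1, 17.6 and 17.6 CPM at 72 h (log2 fold change 0.29 ± 0.15, adjusted p = 0.447), and ABCC1 at 168, 173 and 158 CPM and 152, 147 and 135 CPM (log2 fold change -0.20 ± 0.08, adjusted p = 0.286), with a value of -0.23, adjusted p = 0.0467 without replicate 3. The transcript of NRF2 itself, NFE2L2, was at 92.6, 99 and 108 CPM and 109, 111 and 104 CPM (log2 fold change 0.11 ± 0.08, adjusted p = 0.585). KEAP1 was at 135, 124 and 166 CPM and 148, 142 and 149 CPM (log2 fold change 0.04 ± 0.10, adjusted p = 0.885). Both transcripts overlapped between the times. TRIM16, an NRF2 target, was at 60.6, 64.1 and 116 CPM and then at 123, 119 and 110.4 CPM, with replicate 3 inside the 72 h range (log2 fold change 0.54 ± 0.22, adjusted p = 0.333), and without that library the value was 0.92, adjusted p = 3.7e-07.

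**Figure D3:**
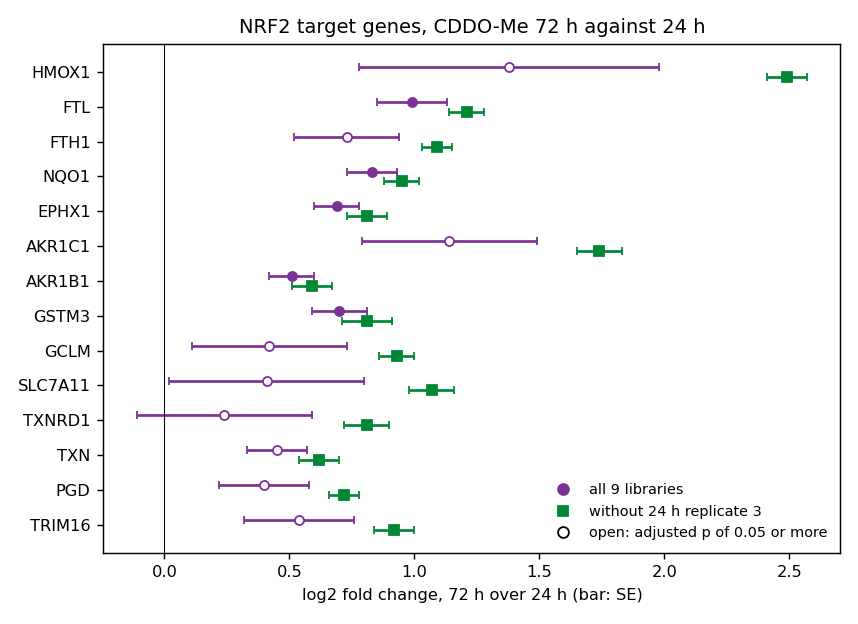
Log2 fold change of 72 h over 24 h for 14 NRF2 targets, with bars of 1 SE, from the fit of all 9 libraries (purple circles) and from the fit without 24 h replicate 3 (green squares). Filled marks passed an adjusted p of 0.05. NQO1, EPHX1, AKR1B1, GSTM3 and FTL passed in both fits, and the other genes only without replicate 3.

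Promoter windows of the called genes were read from RefSeq (GRCh38.p14, 250 bases before to 50 after the start), with 56 of 67 risen and 60 of 85 fallen genes matched by symbol. The antioxidant response element core, searched as TGACNNNGC on both strands, was in 25.0% of the risen and in 28.3% of the fallen genes, against 19.4% of 10981 tested genes and 16.1% of all 27305 promoters. A cAMP response element, searched as TGACGTCA, which reads the same on both strands, was in 10.7% of the risen genes (DUSP1, DUSP8, MYL6, RCAN1, TRAPPC1 and TUBB2A) and in 5.0% of the fallen ones (ADAMTS6, FN1 and LTBP1), against 3.86% of tested genes and 2.25% of all promoters. The TGACGTCA motif was chosen after values had been seen, and a TGACGTCA site cannot also be read as TGACNNNGC from the same first base. The windows below show the match in capitals for genes that rose (DUSP1, DUSP8, RCAN1 and EPHX1) and fell (FN1 and MT2A), each on the strand named, to let the sites be compared.
DUSP1, chr5:172771297-172771336, minus strand: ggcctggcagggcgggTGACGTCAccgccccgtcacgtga
DUSP8, chr11:1572366-1572405, minus strand: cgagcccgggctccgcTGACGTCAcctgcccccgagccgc
DUSP8, chr11:1572322-1572361, minus strand: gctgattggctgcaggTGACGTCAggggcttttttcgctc
RCAN1, chr21:34526980-34527019, minus strand: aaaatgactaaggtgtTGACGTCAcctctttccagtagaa
FN1, chr2:215436228-215436267, minus strand: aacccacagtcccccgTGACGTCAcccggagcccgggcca
EPHX1, chr1:225825260-225825300, plus strand: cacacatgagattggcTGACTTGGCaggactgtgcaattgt
MT2A, chr16:56608464-56608504, plus strand: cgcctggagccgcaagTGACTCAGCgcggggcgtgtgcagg
The DUSP8 promoter holds the 8-letter motif at 2 places. RCAN1, an inhibitor of calcineurin, rose from 89.7, 86.4 and 125 CPM to 152, 155 and 166 CPM (log2 fold change 0.65 ± 0.12, adjusted p = 0.0159), a call that ended without 24 h replicate 1 or 2 or any 1 library of 72 h (adjusted p up to 0.12). A match is a description of letters and not of binding.

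Among 18 p53 targets and growth arrest genes 3 rose and none fell, with a median of 0.13. GADD45A, which responds to DNA damage and other stress, rose from 66.8, 64.2 and 92 CPM to 138, 138 and 144 CPM (log2 fold change 0.91 ± 0.11, adjusted p = 0.00157). CDKN1A, which codes for the cell cycle inhibitor p21, rose from 173, 168 and 177 CPM to 241, 255 and 258 CPM (log2 fold change 0.54 ± 0.07, adjusted p = 0.00238), and its 24 h level lay close to the 167, 154 and 145 CPM of vehicle cells. TP53I3, a quinone reductase induced by p53, rose 1.5-fold (adjusted p = 0.00929), and this call ended without 24 h replicate 2 or 72 h replicate 2 or 3 (up to 0.0889). CDKN1B, which codes for the inhibitor p27, is in none of the lists and was chosen after its values were seen. It went from 112, 114 and 109 CPM to 148, 147 and 152 CPM (log2 fold change 0.42 ± 0.07, adjusted p = 0.00659), a call that ended without any 1 library of 72 h (up to 0.0734). None of 22 genes of DNA replication and none of 22 genes of G2 and mitosis was called, by edgeR, DESeq2 or limma-voom, with medians of 0.01 and 0.03. At an unadjusted p under 0.05, 2 replication genes were higher and 1 mitotic gene was lower, beside 5.75% higher and 7.40% lower over all tested genes. MKI67, a marker of cycling cells, was at 617, 628 and 644 CPM at 24 h and 515, 575 and 512 CPM at 72 h, all 72 h libraries lower (log2 fold change -0.24 ± 0.08, adjusted p = 0.192). MCM4, a subunit of the replicative helicase, was at 607, 592 and 582 CPM and 564, 582 and 578 CPM (log2 fold change -0.05 ± 0.07, adjusted p = 0.837). Without replicate 3, 3 members of each cell cycle list had risen, beside 5.19% of all genes tested in that fit.

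Cytosolic heat shock genes had 3 of 18 members risen and a median of 0.22. CLU, an extracellular chaperone, rose from 59.6, 60.8 and 63.7 CPM to 117, 117 and 115 CPM (log2 fold change 0.93 ± 0.10, adjusted p = 0.000302), against 35.1, 32.9 and 43.8 CPM in vehicle cells. CRYAB, a small heat shock protein of muscle and lens, was low, at 1.8, 1.77 and 2.41 CPM and then 5.77, 5.04 and 4.65 CPM (log2 fold change 1.35 ± 0.29, adjusted p = 0.0369). DNAJB4, a cofactor of HSP70, rose 1.42-fold (adjusted p = 0.0299). CRYAB and DNAJB4 lost their calls without DMSO replicate 2, 24 h replicate 1 or 2, or any 1 library of 72 h (up to 0.196 and 0.201). ENPP2, the secreted enzyme autotaxin, was chosen after its values were seen and rose from 102, 118 and 114 CPM to 190.5, 191 and 184 CPM (log2 fold change 0.76 ± 0.10, adjusted p = 0.00167), against 34.6, 39.2 and 47 CPM in vehicle cells. CNN1, an actin-binding protein of smooth muscle, was the 1 risen of 14 contractile genes, from 25, 23.7 and 30.3 CPM to 41.8, 42.9 and 43 CPM (log2 fold change 0.69 ± 0.10, adjusted p = 0.00477). Summed smooth muscle markers were at 213 to 232 CPM at 72 h and 180 to 269.8 CPM at 24 h, which overlap. CNN1 is 1 of these 5 markers, and most of the sum was TAGLN. MYOCD was lower at 72 h, at 5.36, 4.81 and 3.22 CPM and then 2.66, 2.23 and 2.78 CPM, while TAGLN, ACTA2 and MYH11 overlapped. The part of these markers in the CNN1 result was not tested. MAP2, a microtubule protein of neurons, was the 1 risen of 6 neuronal and glial genes (1.68-fold, adjusted p = 0.0196), a list with a median of -0.45 in which 2 other members had fallen without replicate 3. The glial marker OLIG2 had no count in any library. The MAP2 call ended without 24 h replicate 2 or any 1 library of 72 h (up to 0.13).

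Of 27 tested matrix glycoproteins, cross-linkers and proteases 2 fell (POSTN and FN1) and none rose, with a median of -0.32, and without replicate 3 the counts were 19 and 1 with a median of -0.37. POSTN (ENSG00000133110, chr13:37562583-37598844), a matricellular protein made by activated fibroblasts, fell from 27.6, 33.6 and 20.4 CPM at 24 h to 3.73, 4.62 and 4.06 CPM at 72 h, 6.56-fold lower (log2 fold change -2.71 ± 0.18, adjusted p = 8.96e-06). Vehicle cells had 41.9, 36.5 and 46.6 CPM, and the difference of 24 h from vehicle was -0.62, adjusted p = 0.0575, that of 72 h -3.33, adjusted p = 1.17e-07. Every 72 h library was below 5 CPM and every 24 h library above 20 CPM. Most of the distance of the 72 h group from vehicle thus lay between the drug groups, which also differ in time in culture. TGM2, a transglutaminase that cross-links matrix and was chosen after its values were seen, fell from 7.86, 7.7 and 3.76 CPM to 0.63, 0.796 and 1.17 CPM (log2 fold change -2.88 ± 0.31, adjusted p = 0.000439), against 13, 11.9 and 11.4 CPM in vehicle cells. SPOCK1, a matrix proteoglycan, fell from 214, 225 and 154 CPM to 94.3, 93.3 and 91 CPM (log2 fold change -1.09 ± 0.11, adjusted p = 0.000302), with vehicle at 232, 238 and 233 CPM. TGFBI, an adhesion protein induced by TGF-beta, fell from 271, 267 and 226 CPM to 128, 135 and 139 CPM (log2 fold change -0.93 ± 0.14, adjusted p = 0.00659), a call that ended without 72 h replicate 1 (adjusted p = 0.0547).

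FN1 (ENSG00000115414, chr2:215360440-215436172), fibronectin, fell from 7322, 7182 and 5236 CPM to 3932, 3982 and 3866 CPM (log2 fold change -0.74 ± 0.16, adjusted p = 0.0477). LTBP1, which holds latent TGF-beta in the matrix, fell from 37.2, 39.1 and 20.9 CPM to 17.5, 16.3 and 14.4 CPM (log2 fold change -1.0 ± 0.19, adjusted p = 0.0336). In both genes 24 h replicate 3 was the lowest 24 h library, and the calls ended without any single library other than DMSO replicate 1 and 24 h replicate 3 (adjusted p up to 0.236 and 0.191). Of 18 collagens, COL6A2 fell from 1126, 1058 and 793 CPM to 689, 648 and 681 CPM (log2 fold change -0.56 ± 0.12, adjusted p = 0.0433), and its call ended without DMSO replicate 2, 24 h replicate 1 or 2, or any 1 library of 72 h (up to 0.226). The partner chain COL6A3 had 1157, 1135 and 545 CPM and then 385, 391 and 372 CPM and was not called (log2 fold change -1.30 ± 0.26, adjusted p = 0.079), and without replicate 3 its value was -1.58, adjusted p = 7.56e-10. COL1A1, the most abundant collagen, was at 10789.6, 9792 and 7133 CPM and 9806, 9573 and 9418 CPM and overlapped (log2 fold change 0.06 ± 0.13, adjusted p = 0.893). Without replicate 3, 6 of 18 collagens had fallen. LTBP3, a relative of LTBP1, was at 67.5, 67.5 and 26.4 CPM and 19.9, 18.5 and 17.6 CPM (log2 fold change -1.52 ± 0.34, adjusted p = 0.108), and LOXL4, a cross-linking oxidase, at 16.4, 16.6 and 3.22 CPM and 4.41, 5.04 and 4.38 CPM (log2 fold change -1.37 ± 0.53, adjusted p = 0.333). Neither was called, and without replicate 3 the values were -1.85, adjusted p = 5.84e-10 for LTBP3 and -1.84, adjusted p = 6.2e-08 for LOXL4. The summed fibroblast markers overlapped between the times, at the levels given above, but most of this sum was COL1A1, COL1A2 and VIM. It therefore says little about the other markers. In the fibroblast list of 13 genes 1 fell, POSTN, and none rose, with a median of -0.15. Without replicate 3, 5 of the 13 had fallen and 1 had risen, with a median of -0.43. The part of fibroblast markers in the matrix results was not tested.

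Of 6 tested epithelial genes 2 fell, the keratins KRT18 and KRT19, which form filaments of epithelial cells, and the median was -0.42. KRT19 went from 15.5, 15.2 and 11.1 CPM to 7.36, 7.75 and 7.42 CPM (log2 fold change -0.89 ± 0.15, adjusted p = 0.0095), and KRT18 from 169, 145 and 112 CPM to 97.6, 98.7 and 92.2 CPM (log2 fold change -0.56 ± 0.12, adjusted p = 0.0471). Their usual partner KRT8 was at 35.2, 32.9 and 27.5 CPM and 27.9, 28.3 and 26.9 CPM and was not called (log2 fold change -0.20 ± 0.13, adjusted p = 0.562). CDCP1, a surface protein of epithelial and tumour cells, fell 2.33-fold (adjusted p = 0.0332), and MLPH, an adaptor for organelle transport, 2.13-fold (adjusted p = 0.015). Summed epithelial markers were at 130.3 to 139 CPM at 72 h, below the 159.9 to 226 CPM at 24 h and the 237 to 275 CPM of vehicle, and KRT18 and KRT19 are 2 of these 6 markers. EPCAM, a defining marker, had 3 to 17 counts per library. KRT19 and MLPH lost their calls without 24 h replicate 2 or any 1 library of 72 h (up to 0.0734 and 0.0893). CDCP1 lost it without DMSO replicate 3, 24 h replicate 1 or 2, or any 1 library of 72 h (up to 0.186), and KRT18 without any single library other than DMSO replicate 1 and 24 h replicate 3 (up to 0.255).

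In the list of metallothioneins, which buffer zinc and copper in the cell, and zinc control genes, 2 of 7 tested members fell, both metallothioneins, and the median of the list was -0.37. MT2A (ENSG00000125148, chr16:56608199-56609497) fell from 384, 354 and 384 CPM to 147, 148 and 151 CPM, 2.51-fold lower (log2 fold change -1.33 ± 0.10, adjusted p = 8.98e-06). Its 24 h libraries lay near the 539, 416 and 414 CPM of vehicle, so that the 24 h difference from vehicle was -0.29, adjusted p = 0.171 and the 72 h difference -1.62, adjusted p = 1.96e-07. MT1E fell from 32.3, 30.8 and 29.6 CPM to 17.7, 19.6 and 20.1 CPM (log2 fold change -0.69 ± 0.10, adjusted p = 0.00319). In MT2A and MT1E 24 h replicate 3 lay with replicates 1 and 2. Metallothionein genes are near-identical copies, so reads may be split among them.

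Of 21 genes of cholesterol synthesis and uptake 2 fell and none rose, with a median of -0.17. INSIG1, which holds the sterol sensor SCAP in the endoplasmic reticulum, fell from 291, 279.5 and 172 CPM to 128, 126 and 128 CPM (log2 fold change -0.96 ± 0.15, adjusted p = 0.014), against 164, 169 and 163 CPM in vehicle cells. HMGCS1, the synthase at the start of the pathway, fell 1.36-fold (adjusted p = 0.0336). INSIG1 lost its call without 24 h replicate 2 or any 1 library of 72 h (up to 0.0903), and HMGCS1 without DMSO replicate 3, 24 h replicate 1 or 2, or any 1 library of 72 h (up to 0.246). Fatty acid synthesis had a median of -0.48 over 9 genes, with none called by edgeR or limma-voom, 2 fallen by DESeq2 and 7 lower at an unadjusted p under 0.05 (7.40% of all tested genes). SCD, the desaturase that makes oleate, was at 1008, 1037 and 331 CPM at 24 h and 336, 331 and 330.0 CPM at 72 h (log2 fold change -1.25 ± 0.39, adjusted p = 0.247). SREBF1, the factor that drives these genes, was at 249, 228 and 54.8 CPM and 55.9, 59.3 and 56.8 CPM (log2 fold change -1.63 ± 0.56, adjusted p = 0.304), and FASN, fatty acid synthase, at 1260.5, 1147 and 594 CPM and 536, 534 and 526 CPM (log2 fold change -0.91 ± 0.24, adjusted p = 0.169). In SCD and SREBF1 replicate 3 was at the 72 h level while replicates 1 and 2 were above the vehicle libraries (560.4, 609 and 572 CPM for SCD). Without replicate 3 the values were -1.62, adjusted p = 7.09e-12 for SCD, -2.05, adjusted p = 0.00171 for SREBF1 and -1.18, adjusted p = 1.61e-08 for FASN, and 7 of 9 genes of fatty acid synthesis and 8 of 21 of cholesterol synthesis had fallen.

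TXNIP, an arrestin that limits glucose uptake and binds thioredoxin, fell from 106, 121 and 109 CPM to 50.9, 52.3 and 45 CPM (log2 fold change -1.18 ± 0.19, adjusted p = 0.0223), with all 24 h libraries together, replicate 3 included. Its relative ARRDC4 fell from 5.71, 5.17 and 7.53 CPM to 2.23, 2.55 and 3.26 CPM (log2 fold change -1.20 ± 0.24, adjusted p = 0.0242), which makes 2 of 10 alpha-arrestin and glucose-sensing genes, with a median of -0.25. SLC2A1, the glucose carrier GLUT1, fell from 319.9, 318 and 264 CPM to 226, 230.3 and 230.1 CPM (log2 fold change -0.39 ± 0.08, adjusted p = 0.0306), and vehicle was at 214, 222 and 222 CPM. It was the 1 fallen gene of 26 in the glycolysis and hypoxia list, whose median was -0.12. SLC7A5, which carries large neutral amino acids, fell from 1075, 983 and 1208 CPM to 776, 816 and 762 CPM (log2 fold change -0.47 ± 0.09, adjusted p = 0.0219), as the 1 fallen gene of 24 ATF4 targets with a median of -0.16. Without replicate 3, 11 of the 24 ATF4 targets had fallen, 11 of the 26 glycolysis and hypoxia genes had fallen and 3 had risen, and 3 of the 10 arrestin and glucose-sensing genes had fallen and 1 had risen. DDIT4, an inhibitor of mTORC1, was at 79.6, 73 and 22.9 CPM and 18.4, 17.2 and 15.2 CPM and was not called (log2 fold change -1.78 ± 0.43, adjusted p = 0.143), and without replicate 3 its value was -2.17, adjusted p = 1.08e-10. TXNIP lost its call without 24 h replicate 1 or 2 or any 1 library of 72 h (up to 0.139), and SLC7A5 without 24 h replicate 1 or any 1 library of 72 h (up to 0.181). ARRDC4 and SLC2A1 lost theirs without DMSO replicate 2, 24 h replicate 1 or 2, or any 1 library of 72 h (up to 0.185 and 0.196).

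The transcription factors ETV1, ETV4 and ETV5 of the PEA3 group, which act below ERK, fell. The rule for named genes gave ETV1 and ETV4, and ETV5 was added after its values were seen. ETV1 went from 14.8, 17.8 and 15.8 CPM to 8.82, 7.27 and 7.69 CPM (log2 fold change -1.02 ± 0.14, adjusted p = 0.0023), with vehicle at 9.05, 10.8 and 10.4 CPM. ETV4 went from 15.2, 13.9 and 19.7 CPM to 7.27, 7.96 and 8.44 CPM (log2 fold change -1.05 ± 0.19, adjusted p = 0.0161), and ETV5 from 73.1, 68.8 and 105 CPM to 53.7, 54 and 53.9 CPM (log2 fold change -0.62 ± 0.13, adjusted p = 0.0353). In ETV4 and ETV5 replicate 3 was the highest of all treated libraries. ETV4 lost its call without any 1 library of 72 h (up to 0.122), and ETV5 without DMSO replicate 2 or 3 or any 1 library of 72 h (up to 0.191). Of 17 clock genes 2 fell, with a median of -0.23. BHLHE40, a repressor in the clock, went from 25.9, 27.5 and 17.4 CPM to 9.35, 10.2 and 11.2 CPM (log2 fold change -1.20 ± 0.16, adjusted p = 0.00219), and PER1 from 31.1, 28.6 and 26.9 CPM to 19, 20 and 19.9 CPM (log2 fold change -0.55 ± 0.10, adjusted p = 0.0192). PER1 lost its call without 24 h replicate 1 or 2 or any 1 library of 72 h (up to 0.15). ICAM1, an adhesion receptor for leukocytes, was the 1 fallen of 18 NF-kappaB and cytokine genes, from 35.8, 30.6 and 22.1 CPM to 19.1, 16.1 and 18.1 CPM (log2 fold change -0.72 ± 0.15, adjusted p = 0.033). It lost its call without any single library other than DMSO replicate 1 and 24 h replicate 3 (up to 0.191). The summed leukocyte markers were at 1.55 to 1.96 CPM at 72 h and 1.72 to 3.14 CPM at 24 h, with CD3E at 0 in all libraries, and their part in the ICAM1 result was not tested.

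Several large gene groups gave no call in either direction by edgeR. These were 27 proteasome subunits (median 0.07), 30 nuclear subunits of oxidative phosphorylation (0.15), 30 cytosolic ribosomal proteins (0.03), 19 chaperones of the endoplasmic reticulum (-0.09), 25 lysosome and autophagy genes (-0.06), 25 interferon-stimulated and antigen presentation genes (-0.04) and 11 EGF family genes (0.09). In oxidative phosphorylation 14 of 30 genes had all 72 h libraries above all 24 h libraries, beside the 10.8% of all tested genes in that direction. At an unadjusted p under 0.05, with 5.75% of all tested genes higher and 7.40% lower, 5 of these 30 were higher and 0 lower, and 2 ribosomal genes were higher. At the same limit 0 proteasome genes differed, 2 chaperones and 3 lysosome genes were lower, 1 interferon gene was higher and 3 were lower, and 2 EGF family genes were higher and 1 lower. DESeq2 called 1 chaperone and 1 interferon gene lower and 0 genes of the other 5 groups, and limma-voom called 0 in all 7. Without 24 h replicate 3, 5.19% of all tested genes had risen and 6.84% had fallen. In that fit 5 proteasome genes, 1 oxidative phosphorylation gene and 1 ribosomal gene had risen, and 5 chaperones had fallen. Of lysosome genes 4 had fallen and 2 risen, of interferon genes 4 had fallen and 1 risen, and of EGF family genes 2 had risen and 1 fallen. Among 7 endothelial genes none was called by edgeR, DESeq2 or limma-voom, 2 were lower at an unadjusted p under 0.05, and the sum of the 5 markers of this type was 7.75 to 8.28 CPM at 72 h against 10.9 to 12.3 CPM at 24 h. Most of this sum was TEK alone, at 7.41, 6.74 and 6.89 CPM at 72 h and 8.85, 9.02 and 10.7 CPM at 24 h.

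**Figure D4:**
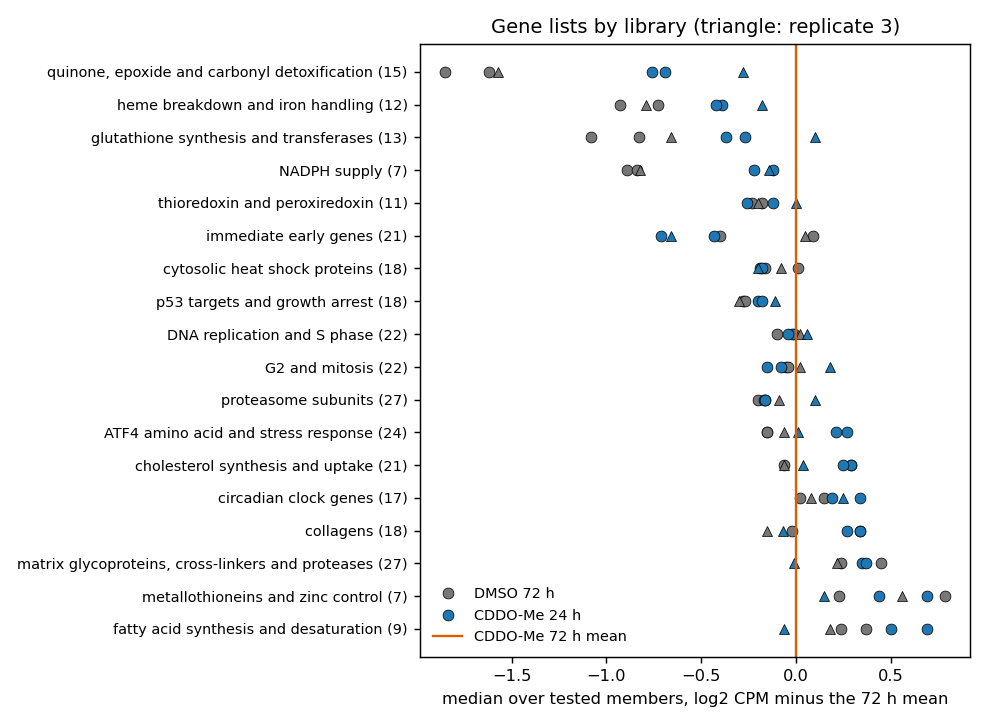
For 18 gene lists, with the number of tested members in brackets, each point is the median over members of log2 CPM in 1 library minus the mean of the 3 libraries of CDDO-Me 72 h (orange line). Blue points are CDDO-Me 24 h, grey points are DMSO 72 h and triangles are replicate 3. In immediate early genes and heat shock genes the blue triangle lies with the blue circles, while in fatty acid synthesis, collagens and glutathione genes it lies at or past the orange line.

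The place of 24 h replicate 3 was measured gene by gene. Its log2 CPM was nearer to the 72 h mean than to the mean of 24 h replicates 1 and 2 in 9521 of the 14965 tested genes (63.6%). In 512 genes of average log2 CPM of at least 3, the 72 h mean differed from that of replicates 1 and 2 by at least 0.5 on the log2 scale. Of these, 389 (76.0%) had replicate 3 nearer to 72 h, and in 165 it lay beyond every 72 h library. Of the 152 called genes 22 had replicate 3 nearer to 72 h. These genes were called with replicate 3 in the 24 h group. A gene in which it lies far from replicates 1 and 2 passes less easily, so this count follows partly from the calling. The glutathione list showed the shift as a whole, since its median relative to the 72 h mean was -0.27 in replicate 1, -0.37 in replicate 2 and 0.10 in replicate 3. For matrix glycoproteins the values were 0.35, 0.37 and -0.01. The median of the immediate early genes did not follow this, with -0.43, -0.71 and -0.66 in the 3 libraries, nor did that of the heat shock genes, with -0.19, -0.18 and -0.20. Single members differed. In DUSP1, KLF6, KLF2 and ATF3 replicate 3 was the 24 h library nearest to 72 h, and in JUN and DUSP5 it was the farthest.

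Genes that set replicate 3 apart were of several kinds. SERPINB2, a protease inhibitor, was at 4.66, 6.58 and 48.2 CPM at 24 h and 22, 23.9 and 30 CPM at 72 h, and HKDC1, a hexokinase family member, at 6.35, 6.23 and 30.2 CPM and 15.3, 19.3 and 19.5 CPM. Neither was called (adjusted p = 0.915 and 0.869), and without replicate 3 the log2 fold changes were 2.16, adjusted p = 0.000216 for SERPINB2 and 1.52, adjusted p = 5.41e-06 for HKDC1. ID1, an inhibitor of basic helix-loop-helix factors, was at 13.7, 14.4 and 81.9 CPM and 50.1, 50 and 47.5 CPM and was not called with replicate 3 (adjusted p = 0.882) or without it (1.81, adjusted p = 0.167). HBEGF, an EGF receptor ligand, was at 21.9, 19.7 and 44.5 CPM and 55.6, 56.8 and 58.3 CPM, with no overlap (log2 fold change 0.97 ± 0.27, adjusted p = 0.176). Without replicate 3 its value was 1.46, adjusted p = 1.56e-08. On the low side, DCN, a proteoglycan of fibroblasts, was at 66.3, 71.2 and 17.3 CPM and 34.9, 34.3 and 37.6 CPM, GPRC5B, an orphan receptor, at 28.1, 28.5 and 7.02 CPM and 8.48, 8.54 and 9.13 CPM, and CCL2, a chemokine, at 13.3, 10.6 and 2.38 CPM and 3.63, 3.82 and 3.9 CPM. In these 3 genes replicate 3 lay below every 72 h library. Without it the log2 fold changes were -0.95, adjusted p = 0.222 for DCN, -1.70, adjusted p = 1.1e-06 for GPRC5B and -1.66, adjusted p = 0.00619 for CCL2, against adjusted p of 0.774, 0.353 and 0.467 in the full fit. The nuclear-retained RNA NEAT1 was at 126, 138 and 30.6 CPM and 44.1, 36.2 and 36.8 CPM (log2 fold change -1.33 ± 0.56, adjusted p = 0.386), and MALAT1 at 77, 78.3 and 33 CPM and 50.5, 31.4 and 22.3 CPM (log2 fold change -0.85 ± 0.46, adjusted p = 0.489). Without replicate 3 the values were -1.76, adjusted p = 0.00765 for NEAT1 and -1.15, adjusted p = 0.148 for MALAT1. Among the 11 tested retained and histone RNAs none was called by edgeR or limma-voom, and 1 was higher and 1 lower by DESeq2. At an unadjusted p under 0.05, 2 were higher and 2 lower, beside 5.75% and 7.40% of all tested genes. The list median relative to the 72 h mean was 0.59, 0.49 and -0.14 in 24 h replicates 1, 2 and 3. Depth and retained RNA therefore moved with replicate 3, and their part in its position was not tested.

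**Figure D5:**
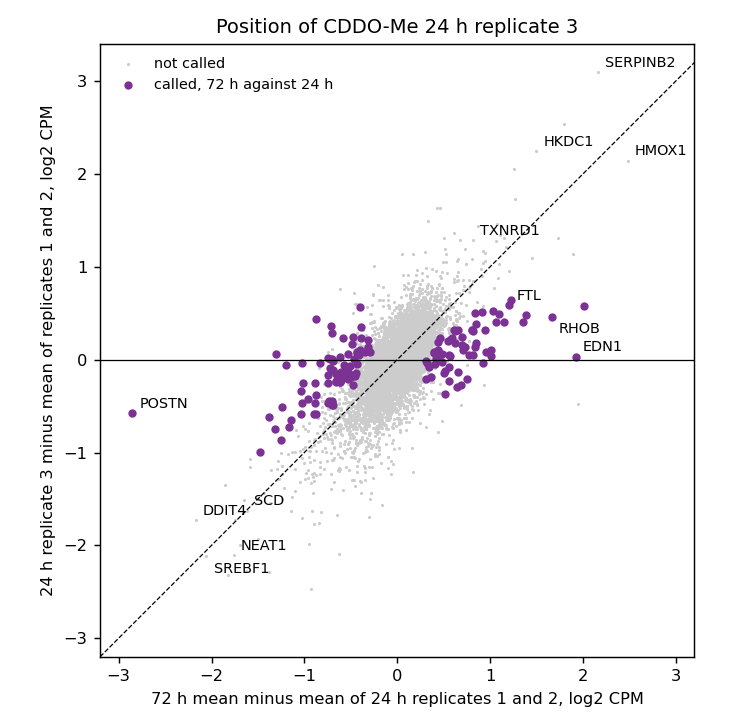
For genes of average log2 CPM of at least 3, the horizontal axis is the 72 h mean minus the mean of 24 h replicates 1 and 2, and the vertical axis is 24 h replicate 3 minus the same mean, both in log2 CPM. On the solid line replicate 3 equals its own group and on the dashed line it equals 72 h, and purple points are called genes. POSTN and EDN1 lie near the solid line, and HMOX1, SCD and SREBF1 near the dashed line.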

How the data were processed

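The authors deposited a table of read counts, whole numbers for each Ensembl gene over its exons, with no normalization. Per the submitters' processing notes, STAR, SAMtools, Subread and featureCounts were used with hg38 or GRCh38, and no versions or annotation release are given in the sources used here. Per the labels' protocols, libraries were unstranded TruSeq v2 preparations of polyadenylated RNA, so reads of genes on opposite strands are not separated, and near-identical copies may share reads. The design text names the drug of the 72 h group as CDDO while the treatment labels give CDDO-Me, which was used. Coordinates were taken as deposited (GRCh38), the table holds no mitochondrial gene, and 57717 of 58299 gene IDs had a symbol.

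Counts of all 9 libraries were fitted in edgeR 4.0.16 (R 4.3.3) with 1 mean per group, 6 residual degrees of freedom, TMM factors, filterByExpr and a robust quasi-likelihood test. The Benjamini-Hochberg adjustment ran over 14965 genes, which held 99.87 to 99.9% of the counts. Standard errors were derived by dividing each absolute log2 fold change by the root of its F statistic, and the common biological coefficient of variation was 11.5%. The floor of 3 counts covers counting error only. No columns were identical, and each replicate pair differed beyond sampling noise (chi-square per degree of freedom 2.09 or more). On simulated data of 14756 genes for this comparison the test recovered 94% of genes raised 2-fold, 54% of those raised 1.5-fold and 86% of those lowered to 0.5, with 11 false calls of 157. The simulated noise was independent between genes, and no simulated library was shifted over many genes as 24 h replicate 3 was. These shares therefore do not give the power in the real libraries.

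The groups, 38 gene lists and rules were chosen with earlier results of these data known. The rule named the 10 highest and 10 lowest log2 fold changes among called protein-coding genes of average log2 CPM of at least 3 whose groups did not overlap, the same without 24 h replicate 3, up to 4 called members per list (or the most expressed and most changed member where none was called), and the 8 genes highest and the 8 lowest in 24 h replicate 3. A few of these genes are not reported singly, and 2 genes were left out of the lists and are not reported here. Names outside the rule, among them FOS, EGR1, NFE2L2, KEAP1, GCLM, SLC7A11, FTH1, COL6A3, KRT8, COL1A1, RCAN1, FTLP3 and MALAT1, were chosen after their values were seen. Alternatives were other size factors, other filters, DESeq2 1.42.0, limma-voom (limma 3.58.1) with and without sample weights, only the treated libraries, a replicate block, and leaving out libraries.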

Additional observations from a re-analysis of the deposited data

How the results depend on the processing

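The counts of 67 risen and 85 fallen genes were within 1.5 times under RLE and upper quartile factors, a CPM filter of 1 in 3 libraries, and a fit of only the treated libraries. They were 203 and 304 with no filter, 163 and 225 by DESeq2, 61 and 53 by limma-voom, 1295 and 1623 by limma-voom with sample weights, and 1596 and 1875 without 24 h replicate 3 and DMSO replicate 1. Leaving out 1 library at a time gave 20 to 795 risen and 11 to 1048 fallen genes. With the replicate number as a block the counts were 91 and 128. The correlations of deviations between libraries of the same number were between 0.00 and 0.18, so the numbers were not taken to pair the libraries. The cause of these shifts was not tested. Of 100 named genes, 10 lost the call by limma-voom, 10 with only the treated libraries, 3 with upper quartile factors (IER2, FN1 and KRT18) and 1 with the block (TXNIP), and none changed sign under these. LTBP1, COL6A2, KRT18, CDCP1, ETV5 and ICAM1 lost it under both limma-voom and the fit of only the treated libraries. The log2 fold change turned negative without 24 h replicate 1 or 2 for OSGIN1 (-0.12 and -0.10), SERPINB2 (-0.14 and -0.09) and HKDC1 (-0.03 and -0.04), and for KEAP1 without replicate 2 (-0.03), while without replicate 3 OSGIN1 was at 1.27, SERPINB2 at 2.16 and HKDC1 at 1.52. COL1A1 was at -0.06 with sample weights, -0.10 without 24 h replicate 3, and -0.10 without both libraries that stand apart. None of these genes was called in the full fit. Changes of 1.5-fold were recovered less often than 2-fold changes in the simulation, which held no library shifted as 24 h replicate 3 was. Small differences may be missed, and the simulation does not tell how often in the real libraries. Some large log2 fold changes, such as those of EGR1 (2.09) and HMOX1 (1.38), were not called in the full fit. Whether these are real differences is left undecided by that fit.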

Other observations

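The genes below were chosen after their values were seen, from the called genes outside the rule for named genes. SGK1, a kinase induced by glucocorticoids and salt, rose from 27.6, 24.7 and 29.1 CPM at 24 h to 42.3, 41.7 and 43.5 CPM at 72 h (log2 fold change 0.65 ± 0.12, adjusted p = 0.014), against 45.8, 58.6 and 63.6 CPM in vehicle cells. DKK1, a secreted inhibitor of Wnt signalling, rose from 291, 302 and 259.8 CPM to 374, 369.5 and 399 CPM (log2 fold change 0.42 ± 0.08, adjusted p = 0.0162), also below its 475, 482 and 511 CPM in vehicle cells. TUBB2A, a beta-tubulin, rose from 71, 66.7 and 81.7 CPM to 114, 114 and 108 CPM (log2 fold change 0.61 ± 0.09, adjusted p = 0.00383), and its close copy TUBB2B may share reads with it. SGK1 lost its call without 24 h replicate 2 or any 1 library of 72 h (up to 0.0957), and DKK1 without any 1 library of 72 h (up to 0.156).

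On the fallen side, SH2B3, an adaptor that restrains cytokine receptor signalling, went from 168, 160.0 and 166 CPM to 99, 102 and 91.8 CPM (log2 fold change -0.75 ± 0.09, adjusted p = 0.000873), with vehicle at 184, 167 and 144 CPM. HIC1, a transcriptional repressor, went from 47.5, 42.1 and 37.6 CPM to 25.4, 23.2 and 23.8 CPM (log2 fold change -0.81 ± 0.11, adjusted p = 0.00319). MAT2A, which makes S-adenosylmethionine, went from 294, 294 and 331 CPM to 211, 213 and 206 CPM (log2 fold change -0.55 ± 0.08, adjusted p = 0.00381), and its 72 h level lay near the 240.2, 207 and 237 CPM of vehicle. SDC4, a heparan sulphate proteoglycan of focal adhesions, went from 194, 189.5 and 207 CPM to 142, 148 and 145 CPM (log2 fold change -0.44 ± 0.08, adjusted p = 0.0105), against 275, 278 and 241 CPM in vehicle cells. MAT2A lost its call without 72 h replicate 3 (adjusted p = 0.0538), and SDC4 without any 1 library of 72 h (up to 0.109). In all 7 genes the 24 h and 72 h libraries did not overlap.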
